A study of Homo sapiens with 12 samples.

Results

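The subunits of oxidative phosphorylation that the nuclear genome encodes were followed from untreated to resistant BT474 cells. Members were the genes whose symbol holds no hyphen and begins with NDUF followed by A, B, C, S or V and a number, with UQCR, with COX4 to COX8, or with ATP5, together with SDHA, SDHB, SDHC and SDHD. Of 88 genes matched by symbol, 79 reached a value of 1 in at least 3 of the 12 libraries, out of 13794 genes in the whole table that did so. They comprised 36 genes of complex I, 4 of complex II, 9 of complex III, 12 of complex IV and 18 of complex V. NDUFA4 was counted with complex IV, where its product is now placed in spite of its name. The symbols of complex V are older ones (ATP5A1 is now ATP5F1A, ATP5B is ATP5F1B, ATP5G1, ATP5G2 and ATP5G3 are ATP5MC1, ATP5MC2 and ATP5MC3, ATP5H is ATP5PD, ATP5J2 is ATP5MF and ATP5F1 is ATP5PB). The choice by symbol also brought in the pseudogene ATP5EP2, the retrogene copy UQCRHL, and ATP5S and ATP5SL, whose products are not subunits. The subunits that mitochondrial DNA encodes are not analysed here.

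In the inner mitochondrial membrane, complex I takes electrons from NADH and complex II from succinate, complex III passes them from ubiquinol to cytochrome c, and complex IV hands them to oxygen. Complexes I, III and IV pump protons, and complex V, the ATP synthase, uses the proton gradient to make ATP. Breast epithelial tumour cells carry all these complexes, and drug-tolerant persister cells are known for leaning on respiration in several cancer types.

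BT474, an established line of human breast cancer cells, carries extra copies of HER2, and lapatinib inhibits the kinases HER2 and EGFR. Polyadenylated RNA was sequenced from Control cells (day 0), drug-tolerant persisters (DTP, day 9), drug-tolerant expanding persisters (DTEP, month 6) and long-term resistant cells (LR, month 9), with 3 libraries each and a wild-type genotype label throughout. DTP, DTEP and LR cells were kept in 1 µM lapatinib. The Control libraries bear the same treatment label and were read as untreated from their titles. All groups come from 1 cell line, and the libraries of a group are technical replicates from parallel plates, so that SDs and p-values measure technical spread and not that between separate derivations.

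Levels are given as normalised read counts, that is, CPM after scaling by the trimmed mean of M-values (TMM). Depth was 16383363 to 25030482 assigned reads per library. DTEP replicate 3 stood apart from the other DTEP libraries. The median absolute log2 difference of the members from the LR mean was 0.104 in DTEP replicate 3, against 1.05 in replicate 1 and 0.659 in replicate 2. It was the lowest DTEP library for 76 of 79 members (47.1% of all genes tested), and DTEP replicate 1 was the highest for 73 (42.8% of all genes). Likewise, DTP replicate 3 was the lowest DTP library for 65 members (39.2% of all genes). All 9 luminal and HER2 markers of BT474 (ERBB2, KRT8, KRT18, KRT19, EPCAM, CDH1, GATA3, ESR1 and FOXA1) were detected in Control cells, and their summed level lay between 11078 and 15650 in the Control and DTP libraries and between 4658 and 6762 in the DTEP and LR libraries. ESR1 went from 149 to 153 normalised read counts in Control to 0.0553 to 0.211 in LR. The 9 markers did not move together. Their log2 changes in LR against Control ran from -7.04 to 2.68, with 3 positive and 6 negative. Of 9 markers of leukocytes, endothelium and fibroblasts, 3 passed the minimum level, their sum was 52.4 to 132 across libraries, mostly COL1A1, and PTPRC, COL1A2, DCN, LUM and PDGFRB were at 0 to 0.165.

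In Control, 0.998% ± 0.0142 (SD, n = 3) of all assigned reads fell on members, and in LR 0.776% ± 0.0318 did. The share was 1.19% ± 0.124 for DTP and 1.18% ± 0.353 for DTEP, whose libraries held 1.52%, 1.21% and 0.815%. The third DTEP library lay next to the LR libraries (0.748% to 0.811%), and the first lay above every other library. Complex V contributed the largest part of these reads in every group, with 0.396% ± 0.00585 in Control and 0.287% ± 0.0188 in LR. Complex IV held 0.185% ± 0.00201 in Control and 0.116% ± 0.00397 in LR, and its highest mean, 0.268% ± 0.0395, was that of DTP, ahead of 0.193% ± 0.0720 for DTEP. Complex III alone had a higher mean in LR than in Control, with 0.0798% ± 0.00157 in Control and 0.102% ± 0.00378 in LR. In these bulk cultures, fewer cells of a kind and less RNA per cell cannot be told apart.

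**Figure D1:**
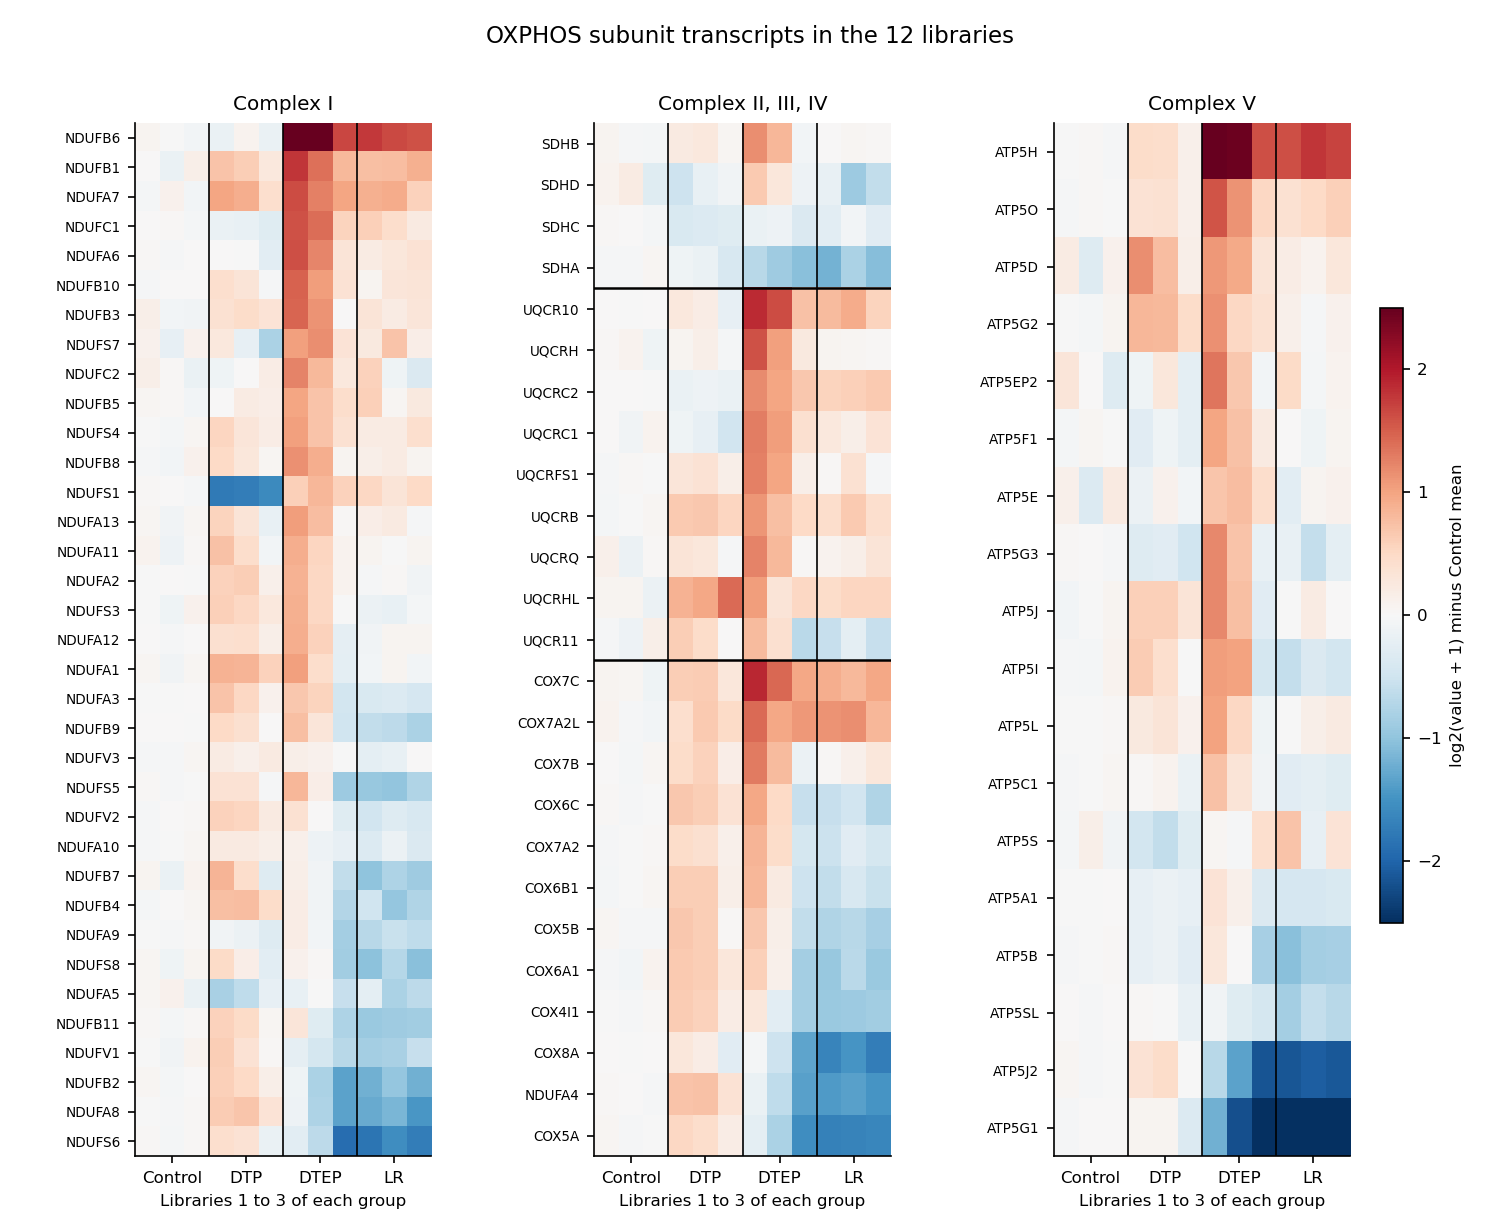
Level of members (rows, sorted within a complex by the DTEP mean) in the 12 libraries (columns), as log2(value + 1) minus the mean of the 3 Control libraries, with the darkest shades also covering values beyond the scale. The third DTEP library resembles the LR libraries, the NDUFS1 row is blue in the 3 DTP libraries alone, and ATP5G1 and ATP5J2 are blue in DTEP and LR.

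To ask how the members moved when cells entered tolerance, DTP was compared with Control on log2(value + 1) with limma, in 1 fit over all 12 libraries. Of 79 members, 12 rose and 3 fell at a Benjamini-Hochberg adjusted p below 0.05, where 25.2% of all 13794 genes rose and 28.8% fell. The median log2 change of the members was 0.28 and that of all genes -0.01. With a log2 change above 1 in size, UQCRHL rose and NDUFS1 fell (9.24% and 15.8% of all genes), and no member changed by more than 2 (1.01% and 3.9% of all genes). The DTP libraries lay above the Control libraries without overlap for 36 members and below them for 13, against 37.7% and 39.6% of all genes. Among the complexes, complex IV was shifted most evenly. All 12 of its members had a positive log2 change, where 6765 of 13794 did over all genes. Their median was 0.46, the smallest was 0.06 (COX8A), and 3 of them passed. Complex I had a median of 0.31 (5 rose, 2 fell), complex III of 0.19 (2 rose), complex V of -0.02 (2 rose) and complex II of -0.24 (1 fell). Without DTEP replicate 3, which enters this comparison only through the shared estimate of the spread, 30 members rose and 4 fell, and 11 of the 12 complex IV members were among those that rose. Over all genes, 8774 of 13758 passed in either direction in that setting, against 7447 of 13794 with all libraries. Leaving out DTP replicate 1 or 2 left 5 or 4 that rose, and leaving out a Control library left 6 or 7. Without DTP replicate 3, the lowest library, 18 rose. Over all genes, 5733 of 13612 passed without DTP replicate 1, 5810 of 13611 without replicate 2 and 7129 of 13604 without replicate 3. Between 5892 and 6211 passed without a Control library.

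The complex IV members that rose were NDUFA4 (0.60), COX7A2L (0.52) and COX7C (0.51). COX7A2L, also called SCAF1, joins complexes III and IV into supercomplexes. Its values were 61.0, 55.9 and 54.8 in Control, 77.2, 91.1 and 80.2 in DTP, 155, 112 and 123 in DTEP and 126, 129 and 102 in LR. All DTP libraries lay above all Control libraries, and DTEP and LR lay higher still. The other 9 members of complex IV did not pass. COX4I1, one of the first nuclear subunits to be built into cytochrome c oxidase, had 321, 317 and 330.5 in Control and 504, 483 and 368 in DTP, a log2 change of 0.47 that did not pass (adjusted p 0.101) although the groups did not overlap. In complex I those that rose included the accessory subunits NDUFA7 (0.77, adjusted p 0.00619), NDUFA1 (0.76, adjusted p 0.0189) and NDUFB4 (0.66, adjusted p 0.0176) and the NADH-module subunit NDUFV2 (0.44, adjusted p 0.0369). In complex III the ubiquinone-binding subunit UQCRB (0.62, adjusted p 0.00399) rose. So did the retrogene copy UQCRHL, from 0.598, 0.598 and 0.373 to 1.77, 1.97 and 3.05, a level at which reads shared with UQCRH could weigh. In complex V the members that rose were the c subunit gene ATP5G2 (0.70, adjusted p 0.00635) and ATP5D, the delta subunit of the central stalk (0.69, adjusted p 0.0484).

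NDUFS1 moved the other way. It encodes the largest subunit of complex I, an iron-sulphur protein of the arm that accepts electrons from NADH (chromosome 2, 206114817 to 206159444 on GRCh38). NDUFS1 was at 151, 150.1 and 145 in Control, 43.3, 43.9 and 48.8 in DTP, 225, 265 and 222 in DTEP and 213, 187 and 209 in LR. Every DTP library lay below every other library, and DTEP and LR lay above Control. The fall into DTP was -1.69 on the log2 scale (SE 0.11, adjusted p 6.62e-07 in limma), and the DTP mean was 3.28-fold below the Control mean. The rise into DTEP was 2.36 on the log2 scale (SE 0.11, adjusted p 1.2e-08 in limma). Over the 24 alternative settings the fall lay between -1.75 and -1.56, with an adjusted p of at most 1.59e-05. Other core subunits of the peripheral arm (NDUFV1, NDUFV2, NDUFS3, NDUFS7 and NDUFS8) had log2 changes between -0.24 and 0.46 in the same comparison. NDUFV1, which binds the flavin that receives the electrons of NADH, had 0.33 (adjusted p 0.112). The other members that fell in DTP were NDUFA5 (-0.55, adjusted p 0.0409), an accessory subunit of the peripheral arm, and SDHC (-0.34, adjusted p 0.0224), a membrane anchor of complex II.

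Transcript length moved with the DTP result. Members are short, with a median length of 830.5 bases for the MANE Select transcript (the 1 representative transcript per gene, known for 78 of 79 members), against 3397 bases over the 12520 genes tested that have one. Across the 78 members, Spearman's rho between length and the DTP change was -0.47, and across the 12442 other genes it was -0.43. These genes share the same libraries and are not independent. The 618 other genes under 1000 bases had a median change of 0.44, beside 0.37 for the 44 members under 1000 bases and -0.02 for the 34 longer members. The 12 members of complex IV, of any length, had 0.46. NDUFS1 has the longest transcript of all members, with 11660 bases, but UQCRB, with 8459, rose. From DTEP to LR the median of the short other genes was -0.49, and that of the short members -0.61. In single libraries the short other genes stood at 0.59, 0.51 and 0.20 above Control in DTP, at 0.89, 0.52 and 0.12 in DTEP and at 0.00 to 0.07 in LR, while the members stood at 0.42, 0.37 and 0.05, at 0.90, 0.52 and -0.12, and at -0.10 to -0.04. The part of length in these differences was not tested.

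**Figure D2:**
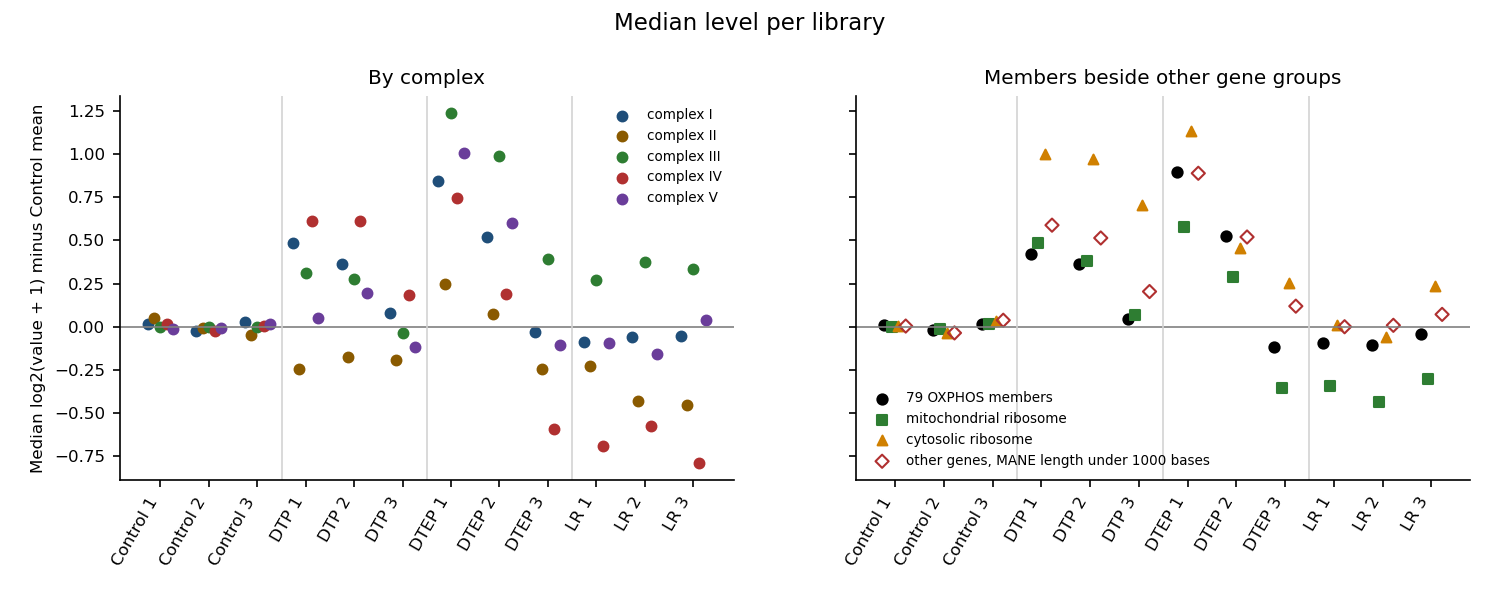
Median of log2(value + 1) minus the Control mean in each library, for the members of each complex (left) and for all 79 members, the mitochondrial ribosome, the cytosolic ribosome and the 618 other genes with a MANE length under 1000 bases (right). Among the DTEP libraries all 4 gene groups on the right are highest in replicate 1 and lowest in replicate 3, and complex III is the one complex above 0 in DTEP replicate 3 and in all 3 LR libraries.

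When DTEP, the cells that had resumed growth, was compared with DTP, members changed in both directions. Of 79 members, 22 rose and 14 fell, against 35.7% and 32.6% of all genes, and with a log2 change above 1 in size 9 rose and 7 fell, against 22.4% and 19.5%. Above 2 in size, NDUFB6 and NDUFS1 rose and ATP5G1 fell, against 8.13% and 7.02%. Without overlap 21 members were higher in DTEP and 11 lower, against 34.5% and 32.8% of all genes. The median of the members was 0.13 and that of all genes 0.08. With upper-quartile scaling the split was 17 higher and 23 lower, with a median of -0.10 for the members and -0.13 for all genes. Complex III had the highest median, 0.53, with 4 members that rose, and complex IV the lowest, -0.32, with 2 that rose and 4 that fell. The complex IV median rested on single libraries, since it was 0.02 without DTEP replicate 3 (3 rose, 3 fell) and -0.64 without DTEP replicate 1 (2 rose, 7 fell), while that of complex III was 0.86 and 0.30. In complex I 10 rose and 7 fell, in complex V 6 rose and 2 fell, and in complex II SDHA fell. Without DTEP replicate 3, 39 rose and 11 fell, and the median was 0.36. In that setting 9827 of 13758 genes passed in either direction, against 9412 of 13794 with all libraries. Without DTEP replicate 1 the median of the members was -0.06, and 9536 of 13756 genes passed.

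**Figure D3:**
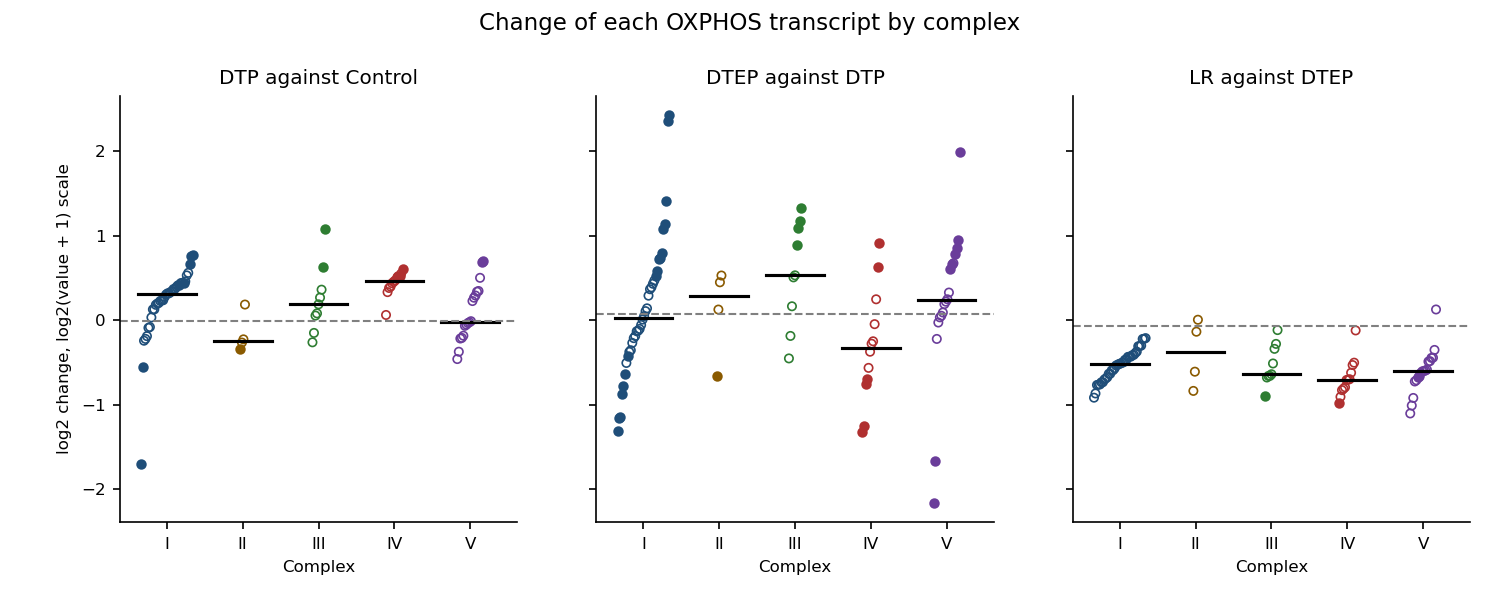
The log2 change of each member in the 3 successive comparisons, by complex. Filled points passed limma at an adjusted p below 0.05, open points did not, bars are medians of a complex and the dashed line is the median of all 13794 genes. DTEP against DTP holds the widest range, from -2.16 to 2.42, and in LR against DTEP 77 of 79 points lie below 0 but 4 are filled. Over all genes, 7754 of 13794 changes were 0 or below in LR against DTEP.

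In complex I, NDUFB6, an accessory subunit of the membrane arm (chromosome 9, 32553001 to 32573159), was between 11.9 and 14.5 in the 6 Control and DTP libraries, at 103, 82.8 and 45.0 in DTEP and at 48.4, 44.6 and 42.8 in LR. Control and DTP overlapped, and every DTEP and LR library lay above them. The rise was 2.42 on the log2 scale (SE 0.24, adjusted p 3.18e-06 in limma), with a DTEP mean 6.01-fold above the DTP mean. NDUFC1, another small subunit of the membrane arm, was at 24.5, 23.9 and 21.9 in DTP and 84.9, 74.3 and 40.9 in DTEP (1.41, adjusted p 0.000149). NDUFA6, which binds the acyl carrier protein of complex I, rose by 1.14, and NDUFS7, an iron-sulphur subunit close to the quinone site, by 1.08. The members of complex I that fell by more than 1 were NDUFA8 (from 193, 199.7 and 157 to 112, 71.3 and 48.2, a change of -1.31), NDUFB2 (-1.16) and NDUFS6 (-1.14), a zinc-binding subunit of the NADH arm. NDUFA8 and NDUFB2 did not overlap between DTP and DTEP. NDUFV1 fell by 0.78, with 407, 343 and 270.3 in DTP and 229, 196 and 165 in DTEP.

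In complex III both large core proteins rose. UQCRC1 was at 167, 158 and 177 in Control, 156, 145 and 119.9 in DTP, 409, 346 and 220.0 in DTEP and 202, 185 and 211 in LR, and UQCRC2 at 189, 189 and 187 in Control, 168, 173 and 168 in DTP, 425, 375 and 299 in DTEP and 277, 286 and 297 in LR. For both genes every DTEP and LR library was above every Control and DTP library. The rises into DTEP were 1.17 for UQCRC1 (adjusted p 0.000207) and 1.09 for UQCRC2 (adjusted p 1.26e-05). UQCR10, a small subunit beside cytochrome c1, rose by 1.33 and UQCRH, the hinge protein that docks cytochrome c, by 0.89. UQCRFS1, the Rieske iron-sulphur protein, had 68.9, 71.0 and 61.2 in DTP and 134, 111 and 61.5 in DTEP, a change of 0.53 that did not pass (adjusted p 0.0587). Against Control, 8 of the 9 complex III members were higher in DTEP, where 29.5% of all genes were, and UQCR11 did not pass (0.18). Without DTEP replicate 3 all 9 passed, where 8772 of 13758 genes passed in either direction, against 8027 of 13794 with all libraries.

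In complex IV, COX5A, a matrix-side subunit, was at 103, 97.4 and 99.0 in Control, 143, 136 and 113 in DTP, 83.6, 57.1 and 33.4 in DTEP and 30.4, 30.7 and 31.7 in LR. DTEP lay below DTP in every library, and the LR libraries were lower than all others. The log2 change into DTEP was -1.25 (SE 0.25, adjusted p 0.00071). NDUFA4 fell by 1.32, from 443, 449 and 349.9 to 240.2, 174 and 105, COX4I1 fell by 0.75 and COX8A, the smallest of the ubiquitous subunits, fell by 0.70. COX7C (0.91) and COX7A2L (0.63) rose. COX5B, COX6A1, COX6B1, COX6C, COX7A2 and COX7B did not pass, with changes from -0.56 to 0.25. In complex II, SDHA, the flavoprotein that oxidises succinate, was at 292, 289 and 307 in Control, 275, 262 and 224 in DTP, 182, 159 and 143 in DTEP and 129.5, 171 and 140.3 in LR, and fell by 0.66 (adjusted p 0.00128). The DTEP and LR libraries were below the DTP libraries throughout. The iron-sulphur subunit SDHB (0.45) and the membrane anchors SDHC (0.13) and SDHD (0.53) did not pass.

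In complex V the peripheral stalk subunit d, ATP5H (chromosome 17, 75038863 to 75046969), was at 102, 105 and 101 in Control, 140.5, 139 and 112 in DTP, 768, 564 and 317 in DTEP and 316, 354 and 335 in LR. The lowest DTEP library held more than any DTP library by over 2-fold, and the LR libraries lay between 316 and 354. The rise was 1.98 on the log2 scale (SE 0.25, adjusted p 1.79e-05 in limma). Other parts of the stalk that rose were ATP5F1, subunit b (0.86), and ATP5O, the oligomycin sensitivity protein (0.78). ATP5J2, the membrane subunit f (chromosome 7, 99458195 to 99466167), fell, from 144, 155 and 111 in DTP to 69.1, 43.8 and 24.6 in DTEP and 24.8, 26.2 and 25.2 in LR, with -1.66 on the log2 scale (SE 0.28, adjusted p 0.000189 in limma). The catalytic beta subunit ATP5B had 0.03 (adjusted p 0.905) and the alpha subunit ATP5A1 0.22 (adjusted p 0.261). Per kilobase of MANE length, ATP5B had the highest Control mean of the members, 753, and ATP5H the highest LR mean, 550.4.

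The c subunit, whose ring turns in the membrane as protons pass, comes from 3 genes that encode 1 mature protein with different import sequences. ATP5G1 (chromosome 17, 48892787 to 48895871) was at 364, 373 and 374 in Control, 387, 389 and 293 in DTP, 161, 80.0 and 37.3 in DTEP and 33.0, 29.9 and 47.5 in LR. DTEP and LR lay below Control and DTP without overlap, and the third DTEP library was within the LR range. The fall into DTEP was -2.16 on the log2 scale (SE 0.39, adjusted p 0.000339 in limma), and LR was 10.1-fold below Control. ATP5G2 was at 172, 168 and 182 in Control, 310.3, 306 and 241 in DTP, 383, 251 and 225 in DTEP and 191, 170.2 and 189 in LR, and ATP5G3 at 221, 218 and 212 in Control, 172, 178 and 153 in DTP, 503, 354 and 189.6 in DTEP and 191, 143 and 182 in LR. ATP5G2 rose into DTP and ATP5G3 into DTEP (0.95, adjusted p 0.00776). Per kilobase of MANE length, ATP5G1 made up 61.4% ± 0.652 (SD, n = 3) of the 3 genes in Control and 51.6% ± 0.713 in DTP. It made up 18.2% ± 5.99 in DTEP and 13.7% ± 2.57 in LR. ATP5G2 went from 29.6% ± 0.819 in Control to 70.3% ± 2.60 in LR. In each library of DTEP and LR the share of ATP5G1 was below that of ATP5G2, and in each library of Control and DTP it was above. The 3 genes summed to 932 ± 14.1 per kilobase in Control and 414 ± 37.8 in LR, with 1069 ± 151 and 732 ± 288 in DTP and DTEP. The shares depend on the lengths used, which for ATP5G3 is 2587 bases against 646 for ATP5G1 and 632 for ATP5G2.

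**Figure D4:**
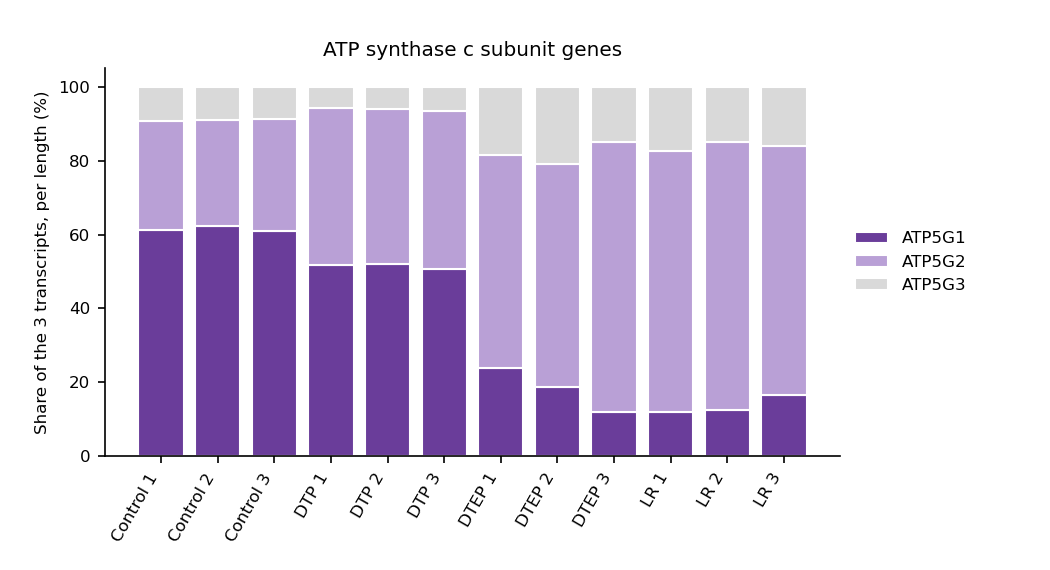
Share of ATP5G1, ATP5G2 and ATP5G3 in the summed level of the 3 ATP synthase c subunit genes, per kilobase of MANE length, in each library (bars add to all of the sum). ATP5G1 holds 50.8% to 62.2% in the 6 Control and DTP libraries and 11.8% to 23.8% in the 6 DTEP and LR libraries.

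The changes of members were set beside those of genes close to them on the chromosome. For the 72 members with at least 5 other tested genes within 1000000 bases on either side, Pearson's r between the log2 change of the member and the median change of those neighbours was 0.63 (Spearman's rho 0.66) in DTEP against DTP, and 55 of 72 had the same sign. In DTP against Control the same values were 0.06, 0.08 and 44, and in LR against DTEP -0.06, 0.03 and 49. They were 0.60, 0.64 and 55 in DTEP against Control and 0.54, 0.61 and 53 in LR against Control. These are descriptions, since all points share the libraries and members close together share neighbours. The 31 neighbours of ATP5G1 on chromosome 17 had a median of -0.95, and the 44 neighbours of ATP5H, farther along the same chromosome, had 1.01. The neighbours of ATP5J2 (43 genes) stood at -0.66, those of COX5A (30) at -0.97 and those of NDUFS6 (14) at -1.17, beside 1.11 for the 34 neighbours of NDUFA6. For SDHA, at the end of chromosome 5 with NDUFS6, it was -1.03. NDUFS1 and NDUFB6 were apart from their surroundings, with neighbour medians of 0.06 (8 genes) and 0.21 (13 genes). Other members also departed from theirs, such as ATP5G3 (0.95, beside -0.35 for 9 neighbours) and NDUFB4 (-0.88, beside 0.12 for 11).

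**Figure D5:**
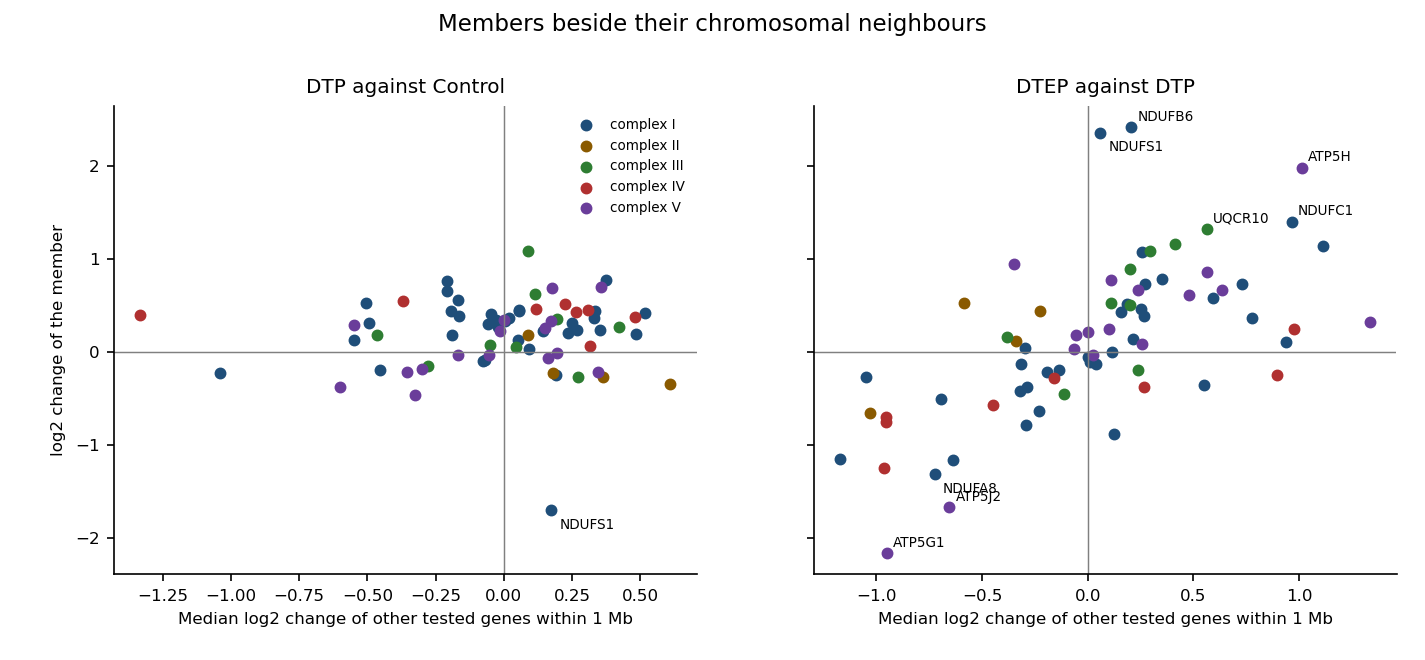
Log2 change of a member against the median log2 change of the other tested genes within 1 Mb on either side, for the 72 members with at least 5 such neighbours, coloured by complex. In DTEP against DTP (right) the points tend to rise from left to right with scatter, with 55 of 72 of the same sign as their neighbours and NDUFS1 and NDUFB6 at the top. In DTP against Control (left) they show no such rise, with NDUFS1 alone at the bottom.

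From DTEP to LR, 77 of 79 members had a negative log2 change, with a median of -0.59 against -0.07 for all genes. Over all genes, 7754 of 13794 had a change of 0 or below. The same held for 79 of 82 genes of the cytosolic ribosome and 75 of 76 of the mitochondrial ribosome. At an adjusted p below 0.05, 4 members fell, against 4.31% of all genes, and 0 rose, against 3.04%. At an unadjusted p below 0.05, limma gave 53 lower and 0 higher members, edgeR 55 and 0, and DESeq2 57 and 0. At an adjusted p below 0.05, edgeR gave 14 lower and DESeq2 38 lower, and neither gave a higher one. Over all 13794 genes, 1703 passed in either direction with edgeR and 3093 with DESeq2, against 1014 with limma. The unadjusted counts were not made over all genes. No member passed in limma with a change above 1 in size (1.45% and 2.5% of all genes) or above 2 (0.225% and 0.457%). The members that fell were COX8A (-0.98, adjusted p 0.0442), UQCRH (-0.90, adjusted p 0.0489), ATP5F1 (-0.66, adjusted p 0.0395) and ATP5E (-0.67, adjusted p 0.0430). Their adjusted p over the alternatives ran from 0.000117 for UQCRH to 0.301 for all 4. ATP5E, the epsilon subunit of the central stalk, was at 0.598 to 2.47 normalised read counts over the 12 libraries, a level at which reads shared with its copies, such as ATP5EP2, could weigh. The lowest changes were those of NDUFS5 in complex I (-0.91), SDHD in complex II (-0.83), UQCRH in complex III, COX8A in complex IV and ATP5G1 in complex V (-1.10, adjusted p 0.0809). The highest were those of NDUFA10 (-0.21), SDHC (0.01), UQCRHL (-0.12), COX7A2L (-0.12) and ATP5S (0.13), and none of these 5 passed. COX8A was at 290.3, 208 and 119 in DTEP and 95.2, 107 and 90.4 in LR. The third DTEP library was close to the LR libraries here and for most members. Of 79 members, 27 were lower in LR without overlap and 0 were higher, against 13.4% and 9.15% of all genes. Without DTEP replicate 3, 68 of 79 members fell and the median was -0.86, with 30 of 36 in complex I, 2 of 4 in complex II, 8 of 9 in complex III, 11 of 12 in complex IV and 17 of 18 in complex V. In that setting 6529 of 13758 genes passed in either direction, against 1014 of 13794 with all libraries, and the median of all genes was -0.10. Without LR replicate 3, 1 member passed, and without any 1 of the other 10 libraries 0 did. Over all genes, 1133 of 13738 passed without LR replicate 3, and 144 to 701 passed without any 1 of those 10.

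Compared with Control, LR cells had 11 members higher and 24 lower, against 30.2% and 32.6% of all genes, and a median of -0.02. By complex the medians were -0.02 for complex I, -0.39 for II, 0.25 for III, -0.68 for IV and -0.02 for V. Complex III had 4 of 9 members higher (UQCR10, UQCRB, UQCRC2 and UQCRHL), and complex IV had 2 higher and 6 lower. With a log2 change above 1 in size, 3 members were higher (16.9% of all genes) and 9 lower (19.6%). The 3 were ATP5H (1.70, adjusted p 7.48e-05), NDUFB6 (1.67, adjusted p 7.85e-05) and COX7A2L (1.04, adjusted p 6.33e-05). The 9 were ATP5G1 (-3.32), ATP5J2 (-2.11), NDUFS6 (-1.70), COX5A (-1.66), COX8A (-1.61), NDUFA4 (-1.41), NDUFA8 (-1.28), NDUFB2 (-1.12) and SDHA (-1.02). Only ATP5G1 and ATP5J2 changed by more than 2 (7.8% of all genes, with 5.03% higher). In every one of these 9 genes all LR libraries were below all Control libraries. Over all members, 20 were higher and 35 lower in LR without overlap, against 37.6% and 39.4% of all genes. In DTEP against Control, 32 members were higher and 9 lower (29.5% and 28.7% of all genes), with a median of 0.47. Above 1 in size, 10 were higher and 2 lower (15.1% and 16.4%), and above 2 NDUFB6 and ATP5H were higher and ATP5G1 lower (4.43% and 6.2%). Without overlap 28 were higher and 12 lower (33.2% and 32.5%). Both comparisons share the Control libraries with DTP against Control. ATP5B fell by 0.90 in LR, from 1303, 1315 and 1355 in Control to 645, 733 and 746, without overlap.

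The 9 genes below the minimum level were mostly tissue isoforms. COX4I2, the lung form of a complex IV subunit, COX6A2 and COX7A1, forms of heart and muscle, and COX7B2 had 0 reads in all 12 libraries, which allows a level of up to 0.124 to 0.173 normalised read counts (3 reads, counting error only). COX6B2, COX8C, ATP5L2 and UQCRBP1 had at most 4 reads in a library. NDUFA4L2, a hypoxia-associated relative of NDUFA4, was at 0.0460, 0.0544 and 0.186 in Control, 0.574, 0.691 and 0.230 in DTP, 0.0957, 0.124 and 0.393 in DTEP and 1.14, 0.830 and 1.07 in LR. All LR libraries lay above all others, at a level that stayed close to the minimum of 1. No test was run on these 9 genes.

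The genes that build and feed the complexes were followed by lists, whose counts are to be read against all genes, of which 25.2% rose and 28.8% fell into DTP, 35.7% and 32.6% did so from DTP to DTEP, and 3.04% and 4.31% from DTEP to LR. Of 47 assembly factors, 12 rose and 7 fell in DTP, and 9 rose and 13 fell from DTP to DTEP. From DTEP to LR 3 fell and 44 of 47 changes were negative, where 7754 of 13794 were 0 or below over all genes. UQCC1, needed to build complex III, was at 270.3, 273 and 289.5 in Control, 399.6, 402 and 384 in DTP, 107, 74.4 and 57.0 in DTEP and 53.9, 61.7 and 63.0 in LR, a fall of 2.35 into DTEP. COX19, a copper-route factor of complex IV, had -1.97, and LYRM7, which loads the Rieske protein, had -1.36 into DTP and 1.83 into DTEP. SDHAF3, a factor for SDHB, had 0 reads in all Control and DTP libraries and 6.70, 8.57 and 4.21 in DTEP. Of 20 electron carriers, ubiquinone synthesis enzymes and nucleotide or phosphate carriers, 3 rose and 4 fell in DTP, 8 rose and 4 fell in DTEP, and 4 fell from DTEP to LR. GPD2, the glycerol-phosphate dehydrogenase that feeds ubiquinone, was at 125, 132 and 113 in Control, 22.7, 29.7 and 41.9 in DTP, 139.7, 155 and 94.9 in DTEP and 104, 64.8 and 98.3 in LR. It was low in the DTP libraries alone (-1.98, then 2.03). SLC25A3, the mitochondrial phosphate carrier, rose by 1.69 into DTEP, whereas the ADP/ATP carrier SLC25A4 (-1.26) and COQ4, a factor of ubiquinone synthesis (-1.17), fell. Of 13 enzymes of the TCA cycle, 1 rose and 4 fell in DTP, 7 rose and 4 fell in DTEP, and 1 fell from DTEP to LR. SUCLG2 and SUCLA2, subunits of succinyl-CoA ligase, had -1.15 and -0.98 into DTP and 1.68 and 1.43 into DTEP. OGDH (-0.81) and IDH3A (-0.57), from dehydrogenases of the cycle, fell into DTEP.

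Among 14 transcriptional regulators of respiration, 2 rose and 7 fell in DTP, and 5 rose and 3 fell in DTEP, beside 25.2% and 28.8%, and 35.7% and 32.6%, of all genes. From DTEP to LR their median change was -0.27. NRF1, a factor that binds many promoters of respiratory genes, was at 31.5, 31.6 and 31.6 in Control, 55.5, 56.0 and 55.3 in DTP, 35.2, 31.1 and 25.7 in DTEP and 27.2, 25.5 and 24.9 in LR. It was high in DTP alone (0.80, adjusted p 0.000451). GABPA, the DNA-binding part of the other classical nuclear respiratory factor, was at 20.7, 21.4 and 16.6 in Control, 3.86, 4.89 and 8.81 in DTP, 15.4, 21.9 and 24.6 in DTEP and 23.4, 20.2 and 17.2 in LR, and was low in DTP alone (-1.64, adjusted p 0.000315). TFAM, which packages and transcribes mitochondrial DNA, was also lowest in DTP, with 123, 128 and 104 in Control, 29.4, 41.1 and 53.6 in DTP, 103, 126 and 134 in DTEP and 162, 160.1 and 143 in LR. Into DTP the coactivator PPARGC1B fell (-1.42), as did the oxygen-regulated factor HIF1A (-1.93). ESRRA, a nuclear receptor with many respiratory targets, rose into DTP (0.61) and fell into DTEP (-1.39).

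The promoters of the 4 members with the largest changes in a successive comparison are shown because these regulators bind promoters of this class. They run from 250 bases before the annotated start to 30 bases into the transcript, from RefSeq on GRCh38.p14 in the direction of transcription, for NDUFS1 (chr2:206159415-206159694 on the minus strand), NDUFB6 (chr9:32573130-32573409 on the minus strand), ATP5G1 (chr17:48892537-48892816 on the plus strand) and ATP5H (chr17:75046940-75047219 on the minus strand). Capitals mark a match to the ETS motif bound by GABPA.
NDUFS1: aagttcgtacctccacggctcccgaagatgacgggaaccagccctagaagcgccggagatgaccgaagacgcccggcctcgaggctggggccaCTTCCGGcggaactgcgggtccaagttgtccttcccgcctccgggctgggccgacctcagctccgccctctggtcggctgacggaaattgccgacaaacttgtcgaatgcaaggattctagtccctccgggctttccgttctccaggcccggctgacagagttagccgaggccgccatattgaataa
NDUFB6: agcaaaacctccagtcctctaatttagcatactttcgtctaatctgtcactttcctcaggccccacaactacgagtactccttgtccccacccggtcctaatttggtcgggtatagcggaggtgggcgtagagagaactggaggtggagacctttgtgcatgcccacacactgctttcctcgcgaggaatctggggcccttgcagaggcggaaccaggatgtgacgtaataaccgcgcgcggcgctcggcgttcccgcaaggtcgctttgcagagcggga
ATP5G1: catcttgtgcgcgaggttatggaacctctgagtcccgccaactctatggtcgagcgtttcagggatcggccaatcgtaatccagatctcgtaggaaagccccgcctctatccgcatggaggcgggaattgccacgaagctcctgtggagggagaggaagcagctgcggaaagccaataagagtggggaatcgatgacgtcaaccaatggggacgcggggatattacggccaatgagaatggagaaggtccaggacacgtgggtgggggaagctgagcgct
ATP5H: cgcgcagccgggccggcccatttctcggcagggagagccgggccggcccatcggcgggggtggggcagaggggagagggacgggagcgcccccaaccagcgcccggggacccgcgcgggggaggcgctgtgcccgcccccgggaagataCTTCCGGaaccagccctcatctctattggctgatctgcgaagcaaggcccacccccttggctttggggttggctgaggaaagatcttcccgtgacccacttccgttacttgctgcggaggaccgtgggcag
The motifs were searched on both strands in the same 280-base window, at the first listed start of each gene. This was done for the 63 members with an entry and for all 27305 promoters. Those promoters include genes outside the 13794 tested, whereas every member had passed the minimum level. CCGGAAG (ETS) was present in 19 member promoters (30.2%) and in 10.3% of all promoters, the NRF1 motif (GCGCA and GCGC with 1 base between them) in 15 (23.8%) and in 6.20%, and the YY1 motif AAGATGGC in 8 (12.7%) and in 2.53%. NDUFS1 and ATP5H each held 1 ETS match, on the opposite strand, at 157 and 101 bases before the start, and the windows of NDUFB6 and ATP5G1 held none of the 3 motifs. The 19 members with the ETS motif had a median change of 0.34 in DTP and the 44 without it 0.28. For the NRF1 motif these were 0.29 with it (15 members) and 0.33 without it (48 members). A match is a run of letters and not a measured binding site.

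Other short transcripts were compared for scale. The cytosolic ribosome (82 genes) had median changes of 0.88 into DTP, -0.21 from there to DTEP and -0.59 from DTEP to LR, with 69 higher and 1 lower in DTP, where 25.2% of all genes were higher and 28.8% lower. The mitochondrial ribosome (76 genes) had 0.33, 0.06 and -0.61, with 21 higher and 7 lower in DTP, beside 0.28, 0.13 and -0.59 for the members. Against Control, the medians were 0.47 for the members and 0.14 for the mitochondrial ribosome in DTEP, and -0.02 and -0.33 in LR, and no test of these differences was run.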

How the data were processed

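Stranded libraries of polyadenylated RNA were aligned by the authors to hg38 with Rsubread and counted over RefSeq gene models, and edgeR and bcl2fastq appear in the submitters' processing notes. Counting ignored strand at its default settings, so that reads of overlapping genes and of near-identical copies may not be counted for the gene they came from. The deposited table holds signal values that the authors made from read counts as CPM over TMM-scaled library sizes. Whole reads were recovered from 199680 values, 100% of those above 0, within a tolerance of 1e-06. The table has 26485 genes, of which 13794 reached 1 in at least 3 libraries and were tested. Depth was 16383363 to 25030482 reads, so that 1 read is worth 0.0412 to 0.0576 and 3 reads, the limit for a count of 0, 0.124 to 0.173 (counting error only).

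Values were tested as log2(value + 1) with limma 3.58.1 (R 4.3.3), with a trend and no covariate in 1 fit over all 12 libraries, and p-values were adjusted by Benjamini-Hochberg over the 13794 genes, with 0.05 as the threshold. A fold change on this scale understates changes of low genes. The libraries of a group are technical replicates from parallel plates, so that p-values measure technical spread. Levels per kilobase used MANE Select lengths from GENCODE, and promoters came from RefSeq (GRCh38.p14). Named were the members with the highest and the lowest change of each complex in each successive comparison, those that passed with a log2 change above 1 in size in any of them, core subunits and subunit isoforms chosen by role and, from each other list, the 2 highest and the 2 lowest changes from DTP to DTEP that passed, with any regulator. Other members were named after their values were seen, and 1 member that enters the counts is not reported here by name. The members and lists were chosen with earlier results of these data known. Alternatives were edgeR 4.0.16 and DESeq2 1.42.0 on the recovered reads, other scalings, pseudocounts of 0.1 and 0.5, other filters, only the 6 libraries compared, the replicate number as a block, and each library left out. The replicate numbers are not labelled as pairs. Deviations of same-numbered libraries correlated at -0.44 to 0.36, with 0.36, -0.0046 and 0.34 for replicates 1, 2 and 3 in DTEP against DTP.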

Additional observations from a re-analysis of the deposited data

How the results depend on the processing

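Leaving out DTEP replicate 3 alone took the lower members in LR against DTEP from 4 to 68, and the higher members in DTP against Control from 12 to 30. Over all genes, those that passed in either direction went from 1014 of 13794 to 6529 of 13758 and from 7447 of 13794 to 8774 of 13758. ATP5E, UQCRHL and ATP5EP2 were near or below 1 normalised read count in some groups, and their reads may be counted for copies or not at all. Counts of members are given as higher and lower. In DTP against Control, 12 and 3 became 35 and 11 with only the 6 libraries compared, 20 and 1 with total reads only, 20 and 1 with upper-quartile scaling (median 0.41), 17 and 1 with edgeR, and 19 higher with DESeq2. A log2 change above 1 left 1 and 1, and above 2 left 0 and 0. Over all 13794 genes, 7447 passed in either direction in the limma fit above, 10067 with only the 6 libraries compared and 7564 with total reads only. Upper-quartile scaling gave 7636, edgeR 7215 and DESeq2 7567. In DTEP against DTP, upper-quartile scaling gave 23 lower and shifted the median of all genes from 0.08 to -0.13, and changes above 1 and 2 in size left 9 and 7, and 2 and 1. With that scaling 9417 of all genes passed in either direction, against 9412. In LR against DTEP, the 4 lower became 0 with no filter, 0 with only the 6 libraries compared (where 22 had an unadjusted p below 0.05), 14 with edgeR and 38 with DESeq2, and 0 were above 1 or 2 in size. Over all genes, 537 of 20381 passed with no filter and 0 of 13794 with only the 6 libraries compared. With edgeR 1703 passed and with DESeq2 3093. In DTEP against Control, 5 were lower with only the 6 libraries compared, and changes above 1 and 2 left 10 and 2, and 2 and 1. In LR against Control, the median was -0.072 with a mean of at least 5, -0.082 with upper-quartile scaling and 0.070 with edgeR, 17 were higher with only the 6 libraries compared, and changes above 1 and 2 left 3 and 9, and 0 and 2. With only the 6 libraries compared, genes that passed in either direction went from 8027 to 7442 in DTEP against Control. They went from 8665 to 9873 in LR against Control. Where no alternative's construction (fewer libraries, a larger change asked for) shows it, the cause was not tested.

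With a replicate block, the counts were 14 and 2, 24 and 14, 0 and 2, 34 and 10, and 10 and 24 in the order DTP against Control, DTEP against DTP, LR against DTEP, DTEP against Control, LR against Control. Over all genes, 7264, 9341, 655, 7929 and 8558 passed in either direction in the same order. The replicate numbers are not labelled as pairs, though same-numbered deviations in DTEP against DTP correlated at 0.36, -0.0046 and 0.34 for replicates 1, 2 and 3.

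Leaving out 1 library at a time gave 4 to 30 higher, 1 to 4 lower and medians of 0.19 to 0.41 in DTP against Control, 19 to 39 higher, 11 to 20 lower and medians of -0.062 to 0.36 in DTEP against DTP, and 0 to 0 higher, 0 to 68 lower and medians of -0.86 to -0.35 in LR against DTEP. It gave 22 to 51 higher, 6 to 13 lower and medians of 0.21 to 0.71 in DTEP against Control, and 10 to 14 higher, 19 to 34 lower and medians of -0.069 to -0.020 in LR against Control. Over all genes, 13604 to 13760 were tested. Of these, 5733 to 8774 passed in DTP against Control, 8293 to 9827 in DTEP against DTP and 144 to 6529 in LR against DTEP. The ranges were 6781 to 8772 in DTEP against Control and 7479 to 9612 in LR against Control. The lowest count of higher members in DTP against Control was without DTP replicate 2, and the highest counts of higher members in DTP against Control, DTEP against DTP and DTEP against Control, and of lower members in LR against DTEP, were without DTEP replicate 3.

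Over the alternatives, the change lay on both sides of 0 for 13 of 79 members on entry into DTP, 23 from DTP to DTEP and 4 from DTEP to LR. Among the members named by the rule for a comparison, the values that turned sign had not passed the test, and the cause was not tested. ATP5A1 in DTEP against DTP was -0.0049 with upper-quartile scaling. ATP5B in DTEP against DTP was -0.086 with total reads only, -0.073 with median-of-ratios, -0.19 with upper-quartile scaling and -0.021 with DESeq2. ATP5G1 in DTP against Control was 0.032 with total reads only, 0.071 with upper-quartile scaling, 0.015 with edgeR and 0.0081 with DESeq2. SDHC in DTEP against DTP was -0.096 with upper-quartile scaling. With 1 library left out the ranges were in DTEP against DTP -0.20 to 0.36 for ATP5B, -0.25 to 0.13 for ATP5G2, -0.60 to 0.074 for COX6B1, -0.32 to 0.32 for COX7A2 and -0.077 to 0.64 for COX7B. They were in DTP against Control -0.13 to 0.069 for ATP5G1 and -0.049 to 0.23 for COX8A. They were in LR against DTEP -0.086 to 0.37 for ATP5S, -0.22 to 0.013 for COX7A2L, -0.065 to 0.050 for SDHC and -0.27 to 0.094 for UQCRHL.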

Other observations

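Subunits whose symbols the choice did not match were at hand for comparison. NDUFAB1, the acyl carrier protein of complex I, had changes of 0.38, 0.45 and -0.82 in DTP against Control and the 2 steps that followed, and CYC1, cytochrome c1 of complex III, had -0.02, 0.54 and -0.75, none of which passed in limma. Among further regulators, GABPB1, the partner of GABPA, fell into DTP (-0.76, adjusted p 0.0123) and rose into DTEP (1.07, adjusted p 0.00102). TFB1M, a methylase of mitochondrial ribosomal RNA, rose into DTEP (1.45), and TFB2M, a transcription factor of mitochondrial DNA, fell (-0.60).

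In the mitochondrial ribosome the highest changes from DTP to DTEP that passed were those of MRPS7 (1.78) and MRPL18 (1.45), and the lowest those of MRPL45 (-3.05) and MRPL27 (-1.69). MRPS7 was at 93.9, 93.7 and 81.4 in DTP and 455, 369 and 176 in DTEP, and MRPL45 at 950.1, 979 and 888 and 195, 97.9 and 74.1. The DTP and DTEP libraries of both genes did not overlap.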
